A study of Mus musculus with 20 samples.

Results

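The response to thapsigargin (TG) was compared between melanoma cells and activated T cells, as the TG effect in melanoma minus the TG effect in T cells, over the genes expressed in both. A gene counted as expressed in both when its level averaged at least 1 CPM (the read count scaled to library size) over the 4 melanoma libraries and over the 4 T cell libraries, which held for 10377 of 14824 tested genes. Another 1360 tested genes fell short in the T cells only, 1562 in melanoma only and 1525 in both cell types. Just inside the limit lay Zfp78, with 1.0008 CPM in melanoma and 1.5314 CPM in T cells, and just outside it Vldlr, with 0.99761 CPM in melanoma and 28.077 CPM in T cells. Some genes passed through 1 treatment only: in melanoma 136 averaged at least 1 CPM with TG alone and 87 with vehicle alone, and in T cells 118 and 101.

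The melanoma cells were mouse B16F10 of the genotype labelled Ctrl, treated with TG or with DMSO as vehicle. The T cells were mouse OT-I/Cas9 CD8 T cells, also labelled Ctrl, given TG or DMSO, and activated. OT-I cells carry a transgenic T cell receptor for an ovalbumin peptide, so they are a single receptor specificity and not a mixed CD8 population. TG was used at 50 ng/mL, and both treatments lasted 8 hours. Activation was by plate-bound antibody to CD3, a chain of the receptor complex, at 2.5 ug/mL for 24 hours, and when TG was added within that time is not stated in the sources used here. The cells also differed in medium: melanoma grew in DMEM with puromycin at 1 ug/mL, and T cells in RPMI with IL-2, IL-7, IL-15, beta-mercaptoethanol and puromycin at 4 ug/mL. Cell type, activation and medium therefore changed together and cannot be told apart. Each of the 4 groups had 2 libraries, and nothing states that they came from separate cultures. The p-values rest on the spread between libraries of a group, estimated over all 20 libraries of 10 groups, and that spread may be technical. Ccdc101 KO melanoma and resting control T cells, each with TG and with vehicle, served as libraries outside the comparison.

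TG blocks SERCA, the pumps that move calcium from the cytosol into the endoplasmic reticulum (ER). Emptying the ER of calcium disturbs the folding of secreted and membrane proteins and starts the unfolded protein response. That response has 3 sensors. PERK slows translation and, through the transcription factors ATF4 and CHOP, turns on amino acid supply and stress genes. IRE1 splices the mRNA of XBP1, which drives genes of ER transport and degradation, and ATF6 is released from the membrane to drive ER chaperones. In T cells calcium entry is also the signal that runs from the T cell receptor through calcineurin to NFAT.

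The 8 libraries held between 10663938 and 17462770 counts. The 2 libraries of each group differed by more than counting noise (chi-square per gene between 1.63 and 2.02). All 10 melanocyte-lineage markers reached 1 CPM in melanoma, where they summed to between 17200 and 17300 CPM with TG and between 19500 and 19700 CPM with vehicle. In T cells the same markers summed to between 5.99 and 9.96 CPM, and 5 of the 10 still reached 1 CPM there. A gene can thus count as expressed in both while nearly all of its level lies in 1 cell type. Tyrp1, for example, had 7010 CPM in melanoma with TG and 2.56 CPM in T cells with TG. All 10 CD8 T cell markers reached 1 CPM in T cells, where they summed to between 12100 and 12200 CPM with TG and between 24300 and 24700 CPM with vehicle. Most of that sum was Gzmb, granzyme B, at a mean of 6250 CPM with TG and 20600 CPM with vehicle. The other CD8 T cell markers except Lck averaged higher with TG, such as Cd3e at 348 CPM with TG and 242 CPM with vehicle, and Cd8a at 992 CPM with TG and 642 CPM with vehicle. In melanoma 2 of the 10 CD8 T cell markers, Gzmb and Lck, reached 1 CPM, and all 10 summed to between 5.63 and 9.3 CPM. Of the CD4 T cell markers only Cd40lg passed 1 CPM in T cells, at 49.5 CPM with TG and 9 CPM with vehicle. The 5 fibroblast markers summed to between 20 and 24.9 CPM in melanoma with TG and between 14 and 15.6 CPM with vehicle, while natural killer markers were at 0 in all 8 libraries. The part of other cells in any result was not tested. In bulk libraries such as these, fewer cells of a type and less RNA per cell cannot be told apart.

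Promoter sequence is shown for 4 genes because they hold the motif of a branch of the response (ERSE in Hspa5 and Creld2, CARE in Chac1 and Atf3). The ER stress element (ERSE, CCAAT and CCACG with 9 bases of any kind between them) is bound by ATF6 and XBP1 together with NF-Y. The C/EBP-ATF composite element (CARE, searched as TGATGNAAT or TTGCATCA) is bound by ATF4 and C/EBP family factors. Both were searched on both strands from 250 bases before to 50 after the RefSeq start on GRCm38.p6, with no promoter in which the 2 overlapped. The 250 bases before each start are printed 5′ to 3′ on the strand of the gene, and capitals mark the letters of the motif. Hspa5 encodes BiP, the main ER chaperone (chr2:34771840-34772089, plus strand). Creld2 encodes a small ER folding factor (chr15:88819396-88819645, plus strand, motif on the opposite strand). Chac1 encodes an enzyme that degrades glutathione (chr2:119350992-119351241, plus strand), and Atf3 a stress-induced transcription factor (chr1:191183334-191183583, minus strand).
Hspa5: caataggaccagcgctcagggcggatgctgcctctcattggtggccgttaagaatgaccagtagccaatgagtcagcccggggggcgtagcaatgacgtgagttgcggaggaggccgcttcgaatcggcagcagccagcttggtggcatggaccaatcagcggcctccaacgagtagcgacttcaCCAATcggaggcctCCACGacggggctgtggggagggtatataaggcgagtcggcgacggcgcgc
Creld2: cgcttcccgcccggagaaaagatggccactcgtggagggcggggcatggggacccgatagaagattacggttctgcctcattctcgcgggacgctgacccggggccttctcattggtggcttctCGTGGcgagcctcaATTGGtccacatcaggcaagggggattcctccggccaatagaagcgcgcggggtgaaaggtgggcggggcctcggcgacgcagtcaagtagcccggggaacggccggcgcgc
Chac1: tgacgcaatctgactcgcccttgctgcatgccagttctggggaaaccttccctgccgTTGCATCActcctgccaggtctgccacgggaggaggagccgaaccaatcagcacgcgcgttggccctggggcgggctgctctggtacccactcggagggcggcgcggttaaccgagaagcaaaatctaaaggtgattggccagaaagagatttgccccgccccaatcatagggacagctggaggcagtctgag
Atf3: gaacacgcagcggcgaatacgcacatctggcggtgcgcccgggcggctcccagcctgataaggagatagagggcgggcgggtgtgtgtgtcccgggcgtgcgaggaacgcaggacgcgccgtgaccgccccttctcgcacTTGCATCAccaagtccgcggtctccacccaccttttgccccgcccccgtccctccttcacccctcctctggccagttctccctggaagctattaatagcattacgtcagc

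The ERSE stood in 7 of 22 ER chaperone genes with a RefSeq promoter (31.8%), against 12 of 7921 genes expressed in both cell types (0.151%) and 37 of 27025 RefSeq genes (0.137%). The 7 were Calr, Hsp90b1, Canx, Pdia6, Dnajc3, Creld2 and Hspa5. The CARE stood in 8 of 30 ATF4 and CHOP targets (26.7%), against 89 of the 7921 expressed genes (1.12%) and 512 of all RefSeq genes (1.89%). Among genes raised at least 2-fold in both cell types 17 of 233 held it (7.3%). It stood in 3 of 228 genes raised in melanoma alone (1.32%) and 4 of 149 raised in T cells alone (2.68%). None of the 222 genes lowered at least 2-fold in both held it. The ERSE stood in 1 of the 233 genes (0.429%), 3 of the 228 (1.32%) and 0 of the 149. The 7 chaperone genes with an ERSE had a median log2 difference between the effects of 1.7 and a range from 0.47 to 3.27. The 15 without it had a median of 0.62 and a range from -0.35 to 2.76, so the ranges overlapped. The 8 targets with a CARE had a median difference of 1.6, from -1.02 for Slc1a4 to 5.22 for Atf3. The 22 without it had a median of 0.56 and a range from -0.39 to 4.14, which lay within that of the 8.

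Of the 10377 genes, 3780 were higher with TG in melanoma (36.4%) and 3842 lower (37%), at an adjusted p below 0.05 over all tested genes. In T cells 3838 were higher (37%) and 3427 lower (33%). The difference of the effects was positive in 2955 genes (28.5%), meaning more TG increase or less decrease in melanoma, and negative in 3018 (29.1%). Changes of at least 2-fold were called in 1788 genes in melanoma (17.2%) and 1309 in T cells (12.6%), and the size of the log2 change was larger in melanoma in 5784 genes (55.7%). Across genes the effects had a Pearson r of 0.482 and a Spearman rho of 0.506. Those are over 10377 genes, which are not independent, from contrasts that share no library. Over the 7583 genes with at least 10 CPM in both cell types r was 0.563.

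**Figure D1:**
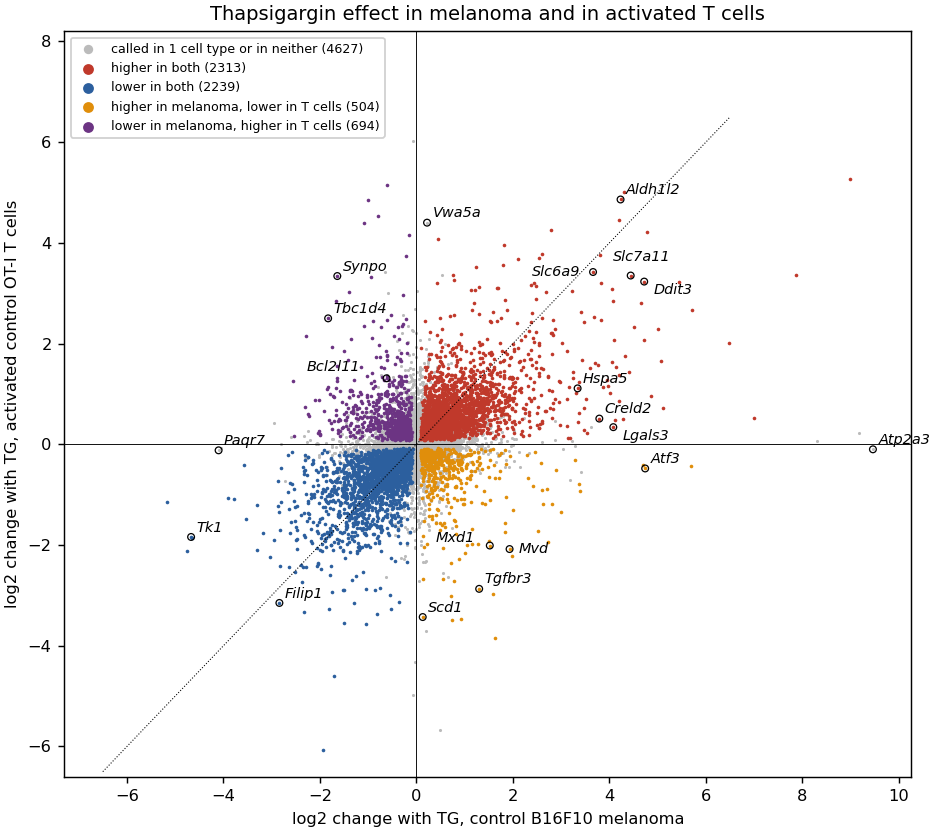
Each point is 1 of the 10377 genes, with the log2 change with TG in control melanoma on the x axis and in activated control T cells on the y axis; colours mark direction where both changes were called, and the dotted line marks equal changes. Aldh1l2 and Slc6a9 lie near the line, Atp2a3 lies far to the right at a T cell change near 0, and Scd1 lies far below 0 at a melanoma change near 0.

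Both cell types called a change in 5750 genes, and in 79.2% of them the direction was shared. TG raised 2313 genes in both cell types (22.3%), of which 837 were raised more in melanoma and 386 more in T cells by a test of the difference. It lowered 2239 genes in both (21.6%), with 482 less lowered and 700 more lowered in melanoma. Opposite changes were called in 504 genes higher in melanoma and lower in T cells (4.86%), and in 694 genes lower in melanoma and higher in T cells (6.69%). With at least 2-fold asked of both cell types, 281 were raised in both, 292 lowered in both, 25 higher in melanoma and lower in T cells, and 28 the other way. A gene counted as cell-specific when it changed at least 2-fold in 1 cell type, stayed within a log2 change of 0.5 (1.41-fold) in the other, and the difference was called. By that rule 279 genes rose (2.69%) and 272 fell (2.62%) in melanoma alone, and 196 rose (1.89%) and 164 fell (1.58%) in T cells alone. Within the limit of 0.5 such a gene could still be called in the other cell type. In melanoma that held for 101 of the 196 genes and 77 of the 164. Cell-specific genes can therefore also count as shared or opposite, as Atf3 did (4.74 in melanoma and -0.48 in T cells, both called).

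The ATF4 and CHOP targets were raised in both cell types. Of 38 listed genes 37 rose in melanoma and 36 rose in T cells, with median log2 changes of 2.15 in melanoma and 1.30 in T cells, against medians over all 10377 genes of -0.00267 in melanoma and 0.0335 in T cells. The exceptions were Tnfrsf10b, not called in melanoma, and Ddit4 and Atf3, lower in T cells. Slc6a9, a glycine transporter, had 179 and 182 CPM in melanoma with TG, against 13.6 and 15 CPM with vehicle, and 162 and 159 CPM in T cells with TG, against 13.7 and 16.5 CPM with vehicle. Its libraries with TG lay about as far above vehicle in both cell types, with log2 changes of 3.66 ± 0.063 (SE) in melanoma and 3.42 ± 0.064 in T cells. The difference of 0.24 ± 0.11 was not called (adjusted p = 0.059), though it was called without the first vehicle library of the T cells (0.38, adjusted p = 0.01). Aldh1l2, a mitochondrial folate enzyme, had 1310 and 1290 CPM in melanoma with TG, against 70 and 68.8 CPM with vehicle, and 115 and 128 CPM in T cells with TG, against 4.13 and 4.27 CPM with vehicle. The groups did not overlap in either cell type. The log2 changes were 4.23 ± 0.043 in melanoma and 4.86 ± 0.078 in T cells, the larger rise being in T cells (difference -0.63, adjusted p = 3.5e-06).

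Slc7a11, the cystine transporter, stood at 524 and 570 CPM in melanoma with TG, against 24.8 and 25.5 CPM with vehicle, and at 40.4 and 37.7 CPM in T cells with TG, against 3.18 and 4.65 CPM with vehicle. The groups did not overlap in either cell type, and the log2 changes were 4.44 in melanoma and 3.35 in T cells. Angptl6, a secreted angiopoietin-like protein, rose by 4.78 in melanoma and 4.21 in T cells, and the difference was just called (0.58 ± 0.24, adjusted p = 0.044) and was not called by DESeq2 (adjusted p = 0.1) or without the first vehicle library of melanoma (0.33, adjusted p = 0.45). Ddit3 encodes CHOP. It had 848 and 826 CPM in melanoma with TG, against 29.2 and 34.7 CPM with vehicle, and 100 and 92.6 CPM in T cells with TG, against 11 and 9.31 CPM with vehicle. All TG libraries lay above their vehicle libraries, with log2 changes of 4.72 in melanoma and 3.23 in T cells and a difference of 1.49 ± 0.12 (adjusted p = 3e-15). Chac1, whose promoter is printed above, rose by 2.84 in melanoma and 2.47 in T cells, a difference of 0.37 ± 0.12 (adjusted p = 0.0094) that was not called without the second TG library of melanoma (0.28, adjusted p = 0.073). Trib3, a pseudokinase that restrains ATF4, rose by 4.65 in melanoma and 2.80 in T cells. Ppp1r15a (GADD34), which reverses the translation block, rose by 5.01 in melanoma and 2.29 in T cells. Atf4 itself rose by 1.84 and 0.99 in the same order.

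Amino acid supply moved the same way. Of 13 listed transporters 11 rose in melanoma and 11 in T cells, and of 16 serine, folate and asparagine enzymes 13 rose in melanoma and 14 in T cells. The difference was positive in 6 and negative in 3 of the transporters (median log2 difference 0.129), and positive in 8 and negative in 6 of the enzymes (median 0.174). Over all genes expressed in both cell types 36.4% rose and 37% fell in melanoma, and 37% rose and 33% fell in T cells. Of all differences 28.5% were positive and 29.1% negative. Slc1a4, a neutral amino acid carrier, rose more in T cells: it had 179 and 172 CPM in melanoma with TG, against 48.7 and 49.7 CPM with vehicle, and 294 and 299 CPM in T cells with TG, against 40.7 and 41 CPM with vehicle. Its log2 changes were 1.84 in melanoma and 2.86 in T cells, and the difference was -1.02 ± 0.072 (adjusted p = 6.2e-21). Pycr1, the last enzyme of proline synthesis, rose more in melanoma (4.51 against 2.32 in T cells). Of 22 tRNA synthetases and their partners 16 rose and 3 fell in melanoma, while 14 rose and 5 fell in T cells, and 16 differences were positive and 1 negative. Mars, the methionyl-tRNA synthetase and the 1 with a negative difference, had log2 changes of -1.02 in melanoma and 0.28 in T cells. Rars, the arginyl-tRNA synthetase, moved in the opposite way, by 0.69 in melanoma and -0.12 in T cells.

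Cell cycle genes were lowered in both. All 32 DNA replication genes and all 26 mitosis genes were lower with TG in both cell types, where the background was 37% in melanoma and 33% in T cells. Replication genes fell further in melanoma (18 differences negative, 6 positive, medians -1.59 in melanoma and -1.31 in T cells). Mitosis genes fell further in T cells (16 differences positive, 1 negative, medians -1.26 in melanoma and -1.59 in T cells). The background for both lists was 29.1% of differences negative and 28.5% positive over all 10377 genes. Tk1, thymidine kinase, had 4.47 and 4.27 CPM in melanoma with TG, against 113 and 111 CPM with vehicle, and 10.3 and 12 CPM in T cells with TG, against 39.1 and 41.3 CPM with vehicle. The TG libraries were the lower ones in both cell types, and the log2 changes of -4.67 in melanoma and -1.84 in T cells differed by -2.83 ± 0.17 (adjusted p = 1.7e-24). Uhrf1, which carries DNA methylation through replication, changed by -3.17 in melanoma and -1.77 in T cells. Aurkb, a mitotic kinase, changed by -1.82 in melanoma and -1.83 in T cells. Aurka changed by -0.91 and -1.79. Ccnd1, cyclin D1, had 104 and 102 CPM in melanoma with TG, against 296 and 289 CPM with vehicle, and 0.266 and 0.877 CPM in T cells with TG, against 6.53 and 7.6 CPM with vehicle. TG lowered it in both cell types, further in T cells (difference 2.04 ± 0.31). In T cells it reached 1 CPM with vehicle only.

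Some other single genes were lowered about as far in both cell types. Filip1, a cytoskeletal regulator first known in neurons, had 7.93 and 9.51 CPM in melanoma with TG, against 63.3 and 61.7 CPM with vehicle, and 5.32 and 3.83 CPM in T cells with TG, against 38.9 and 42 CPM with vehicle. That is a log2 change of -2.84 in melanoma and -3.15 in T cells, with a difference of 0.31 ± 0.19 that was not called (adjusted p = 0.21). Phf19, a Polycomb partner, changed by -2.52 and -2.53, Prkar2b, a regulatory subunit of protein kinase A, by -2.64 and -2.43, and Fbxo5, an inhibitor of the anaphase-promoting complex, by -2.40 and -2.40 in melanoma and in T cells. Of 15 cytosolic heat shock genes 12 fell in melanoma, 12 in T cells and 10 in both. Their differences were positive in 4 and negative in 8. Of 24 glycolytic and hypoxia-linked genes 17 fell in melanoma, 19 in T cells and 15 in both, with 8 differences positive and 12 negative. Over all genes expressed in both cell types 37% fell in melanoma and 33% in T cells. Of all differences 28.5% were positive and 29.1% negative. Hspa8, the constitutive cytosolic chaperone, changed by -1.86 in melanoma and -0.87 in T cells, the opposite direction to the ER chaperones. Ldha, lactate dehydrogenase A, changed by -1.10 and -0.62. Hspa8, Ldha and the ribosomal protein genes have close copies in the genome, so their reads may be counted in part.

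ER chaperones rose in both cell types and far more in melanoma. Of 27 genes 25 rose in melanoma and 23 in T cells, and 24 differences were positive, 1 negative, against a background of 28.5% positive. The median log2 change was 1.55 in melanoma and 0.397 in T cells. As a share of the TMM-scaled library size, together they took 5.79% and 5.72% in melanoma with TG, against 1.24% in both libraries with vehicle. In T cells they took 1.91% and 1.90% with TG, against 1.37% and 1.40% with vehicle. Hspa5 had 16500 and 16000 CPM in melanoma with TG, against 1620 and 1600 CPM with vehicle, and 4150 and 4090 CPM in T cells with TG, against 1880 and 1940 CPM with vehicle. With vehicle the cell types stood close together; with TG melanoma stood well above T cells. The log2 changes were 3.34 ± 0.03 in melanoma and 1.11 ± 0.028 in T cells, a difference of 2.23 ± 0.04 (adjusted p = 4.4e-57).

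Creld2 gave the largest difference in the list. It had 1560 and 1580 CPM in melanoma with TG, against 115 and 112 CPM with vehicle, and 188 and 182 CPM in T cells with TG, against 125 and 134 CPM with vehicle. Vehicle levels were alike, and the TG libraries separated from vehicle in both cell types, by 3.79 in melanoma and 0.51 in T cells (difference 3.27 ± 0.055). Sdf2l1, a partner of BiP, changed by 3.12 and 0.36, Pdia4, a disulfide isomerase, by 2.97 and 0.38, and Calr, calreticulin, by 1.55 and 0.05, the last not called in T cells (adjusted p = 0.2). The 1 negative difference was Txndc5, with log2 changes of 0.15 in melanoma and 0.50 in T cells. Cnpy3, a chaperone of Toll-like receptors, was lower in both, at -0.28 in melanoma and -0.59 in T cells.

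The other ER lists had the same order. IRE1 and XBP1 targets rose in 33 of 33 genes in melanoma and in 32 of 33 in T cells, with medians of 1.28 in melanoma and 0.536 in T cells and 29 positive differences. ER-associated degradation genes rose in 21 of 22 in melanoma and in 20 of 22 in T cells, with 17 positive differences and no negative one. Over all genes expressed in both cell types 36.4% rose in melanoma and 37% in T cells, and 28.5% of differences were positive. Dnajb9, a BiP co-chaperone that restrains IRE1, had 180 CPM in both melanoma libraries with TG, against 11.3 and 10.2 CPM with vehicle, and 41.6 and 41 CPM in T cells with TG, against 13.5 and 13.2 CPM with vehicle. Its log2 changes of 4.06 in melanoma and 1.63 in T cells differed by 2.43 ± 0.12. Xbp1 rose by 1.77 in melanoma and 0.62 in T cells, a count of all its transcripts that does not show splicing. Edem1, which passes misfolded glycoproteins to degradation, had 798 CPM in both melanoma libraries with TG, against 208 and 209 CPM with vehicle, and 506 CPM in both T cell libraries with TG, against 598 and 596 CPM with vehicle. Of the genes of these 3 lists called in both cell types it was the only 1 to move in opposite directions, by 1.93 in melanoma and -0.24 in T cells (difference 2.17 ± 0.047). Eif2ak3, which encodes PERK and stands in none of the 3 lists, was also opposite, with 154 and 156 CPM in melanoma with TG, against 53.6 and 55.4 CPM with vehicle, and 85.3 and 88.7 CPM in T cells with TG, against 137 and 133 CPM with vehicle. The log2 changes were 1.51 and -0.64.

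**Figure D2:**
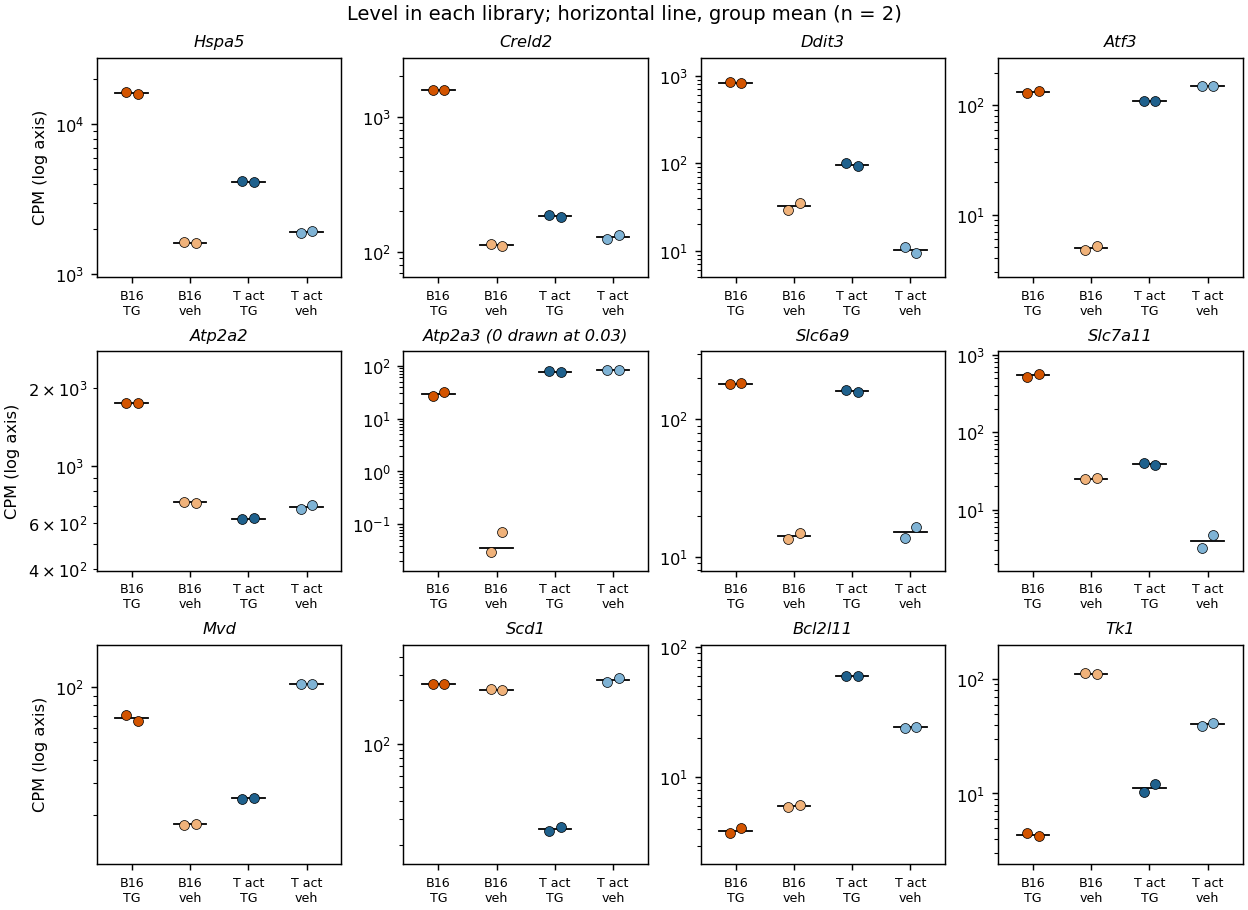
CPM of 12 genes in each of the 8 libraries on log axes, with TG left of vehicle for melanoma (orange) and activated T cells (blue), and a line at the mean of each group. Hspa5 and Creld2 start from like levels and part with TG, Atf3 starts low in melanoma only, and Mvd moves up in melanoma and down in T cells.

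The genes of the SERCA pumps rose in melanoma and not in activated T cells. Atp2a2, the widely expressed SERCA2, had 1750 and 1760 CPM in melanoma with TG, against 728 and 718 CPM with vehicle, and 621 and 629 CPM in T cells with TG, against 683 and 704 CPM with vehicle. It rose by 1.28 in melanoma and was 0.15 lower on the log2 scale in T cells (-0.15 ± 0.032, adjusted p = 3e-05), a difference of 1.43 ± 0.044. Atp2a3, SERCA3, the isoform of blood cells (chr11:72961169-72993044 on GRCm38, plus strand), had 27 and 31.5 CPM in melanoma with TG, against 0 and 0.0705 CPM with vehicle, and 77.4 and 75.4 CPM in T cells with TG, against 81.1 and 82.8 CPM with vehicle. Melanoma went to 650 counts with TG, against 1 count with vehicle, a ratio of 925 with a 95% interval from 165 to 36600 that covers counting error only. Atp2a3 therefore counts as expressed in melanoma through the TG libraries alone. In T cells the change of -0.10 ± 0.056 was not called (adjusted p = 0.12), though it was with RLE scaling (-0.13, adjusted p = 0.046).

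The calcium list as a whole had no single direction. Of 19 genes 9 rose and 6 fell in melanoma, 10 rose and 3 fell in T cells, and 11 differences were negative and 7 positive. Over all genes expressed in both cell types 36.4% rose and 37% fell in melanoma, and 37% rose and 33% fell in T cells. Of all differences 28.5% were positive and 29.1% negative. Orai1, the pore of store-operated calcium entry, had 7.39 and 8.18 CPM in melanoma with TG, against 10.5 and 10.1 CPM with vehicle, and 98.6 and 85.5 CPM in T cells with TG, against 28 and 26.9 CPM with vehicle. It was lower with TG in melanoma (-0.41) and higher in T cells (1.74), a difference of -2.15 ± 0.15 (adjusted p = 3.4e-21). Without the first TG library of melanoma its fall there was not called (-0.34, adjusted p = 0.084). Itpr1, an ER calcium release channel, changed by -2.0 in melanoma and 0.18 in T cells, and Stim2, an ER calcium sensor, by -1.59 and 0.49. Among 12 calcineurin and NFAT genes 5 rose and 4 fell in melanoma, near the background of 36.4% raised and 37% lowered. In T cells 7 rose and 5 fell, against a background of 37% raised and 33% lowered. Rcan1, a calcineurin inhibitor that is itself a calcineurin target, rose in both, by 0.94 in melanoma and 1.43 in T cells. Nfatc2 fell in both, by 0.73 in melanoma and 2.11 in T cells.

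Of the 279 genes raised in melanoma alone, 177 were still called in T cells within the limit of 0.5. Genes named for their class here and below averaged at least 10 CPM with TG, with vehicle or with both in each cell type. Atf3 stood out for its starting level (chr1:191170296-191218039). It had 129 and 136 CPM in melanoma with TG, against 4.77 and 5.14 CPM with vehicle, and 109 CPM in both T cell libraries with TG, against 151 and 152 CPM with vehicle. All groups but vehicle-treated melanoma lay between 109 and 152 CPM. The log2 change was 4.74 ± 0.078 in melanoma and -0.48 ± 0.045 in T cells, a difference of 5.22. Lgals3, galectin-3, changed by 4.08 in melanoma and 0.34 in T cells, where it was already at 530 and 520 CPM with vehicle. Apobr, a receptor for apolipoprotein B, had 16.5 and 16.9 CPM in melanoma with TG, against 0.574 and 0.705 CPM with vehicle, and 8.87 and 11.3 CPM in T cells with TG, against 13.8 and 13 CPM with vehicle. It rose by 4.70 in melanoma and was 0.41 lower in T cells on the log2 scale (difference 5.11 ± 0.25), a fall not called without the first TG library of T cells (-0.25, adjusted p = 0.14). In melanoma it reached 1 CPM with TG only. With vehicle all 3 stood far lower in melanoma than in T cells, at ratios of 0.0326 for Atf3, 0.0074 for Lgals3 and 0.0476 for Apobr.

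Of the 272 genes lowered in melanoma alone, 147 were also called in T cells within the same limit. Paqr7, a membrane progestin receptor, had 1.82 and 1.24 CPM in melanoma with TG, against 27.7 and 24.8 CPM with vehicle, and 11.9 and 13.5 CPM in T cells with TG, against 13.7 and 14 CPM with vehicle. It fell by 4.10 on the log2 scale in melanoma, and the T cell change of -0.12 was not called (adjusted p = 0.39). Slc29a1, the nucleoside transporter ENT1, had 16.7 and 15.6 CPM in melanoma with TG, against 93.7 and 94.2 CPM with vehicle, and 105 and 107 CPM in T cells with TG, against 92.1 and 97.7 CPM with vehicle. Vehicle levels were alike in both cell types and the difference was -2.70 ± 0.085. Cemip2, a hyaluronidase of the cell surface, changed by -2.60 in melanoma and 0.14 in T cells, the last not called. Egr1, an immediate early transcription factor, had 1 and 0.889 CPM in melanoma with TG, against 8.16 and 15.4 CPM with vehicle, and 55.7 and 55.5 CPM in T cells with TG, against 74.6 and 72.8 CPM with vehicle. It was also called lower in T cells (-0.41), and in melanoma it averaged at least 1 CPM with vehicle only. The vehicle libraries of melanoma lay apart, and the difference of -3.17 had an SE of 0.56.

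Vwa5a had the largest difference among the genes named as raised in T cells alone (chr9:38718268-38743337); it encodes a protein with a von Willebrand factor A domain. It had 11.9 and 13.3 CPM in melanoma with TG, against 11.2 and 10.4 CPM with vehicle, and 767 and 784 CPM in T cells with TG, against 36.1 and 37.3 CPM with vehicle. T cells with TG stood far above the other 3 groups, with log2 changes of 0.22 in melanoma, not called, and 4.40 in T cells (difference -4.19 ± 0.12). Spry1, an inhibitor of receptor signalling to ERK, had 14.6 and 12.8 CPM in melanoma with TG, against 17.6 and 15.1 CPM with vehicle, and 144 and 133 CPM in T cells with TG, against 19.1 and 16.1 CPM with vehicle. It started from like levels in both cell types, and the log2 changes were -0.27 in melanoma and 2.96 in T cells. Ccn1, a matrix protein, changed by -0.21 in melanoma and 3.74 in T cells, and Samd4, an RNA-binding repressor, by 0.43 and 3.20. Both stood higher in melanoma with vehicle, by ratios of 30.2 and 19.8.

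Lipid genes were among those lowered in T cells alone. Scd1, the stearoyl-CoA desaturase (chr19:44394455-44407879), had 261 and 258 CPM in melanoma with TG, against 239 and 236 CPM with vehicle, and 25 and 26.4 CPM in T cells with TG, against 270 and 286 CPM with vehicle. All groups but TG-treated T cells lay between 236 and 286 CPM. Its log2 changes were 0.13 ± 0.038 in melanoma and -3.43 ± 0.052 in T cells (difference 3.56, adjusted p = 2.9e-56). Me1, malic enzyme, which makes NADPH for fatty acid synthesis, had 57.7 and 53.3 CPM in melanoma with TG, against 50.9 and 50.6 CPM with vehicle, and 1.24 and 1.35 CPM in T cells with TG, against 13.8 and 14.3 CPM with vehicle. The melanoma change of 0.13 was not called (adjusted p = 0.074), and the T cell change was -3.42. Lmna, lamin A/C, changed by 0.13 in melanoma and -2.67 in T cells, and C1qtnf6, a secreted C1q-related protein, by -0.37 and -3.14.

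Sterol and fatty acid synthesis was the list with the widest split in direction. In melanoma 14 of 27 genes rose, 11 fell and 2, Mvk and Idi1, were not called, with a median log2 change of 0.129. In T cells all 27 fell, with a median of -1.25. All 14 that rose in melanoma were therefore opposite, where 4.86% of the expressed genes were, and 24 differences were positive. Mvd, which makes isopentenyl diphosphate in the mevalonate pathway (chr8:122433601-122443422, minus strand), had 70.6 and 65.1 CPM in melanoma with TG, against 17.7 and 17.8 CPM with vehicle, and 24.5 and 24.8 CPM in T cells with TG, against 104 CPM in both libraries with vehicle. TG and vehicle changed places between the cell types, with log2 changes of 1.93 ± 0.071 in melanoma and -2.08 ± 0.063 in T cells, a difference of 4.01 ± 0.095 (adjusted p = 2.4e-49). Hmgcs1, which makes the HMG-CoA of the pathway, had 91 and 93 CPM in melanoma with TG, against 80.9 and 77.5 CPM with vehicle, and 180 and 179 CPM in T cells with TG, against 696 and 722 CPM with vehicle. Its rise in melanoma was small (0.22) beside its fall in T cells (-1.98), and was not called without the second TG library of melanoma (0.14, adjusted p = 0.052). Lss, which closes the sterol ring, changed by 0.83 and -1.78, and Fdps, which makes farnesyl diphosphate, by 0.81 and -1.63.

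**Figure D3:**
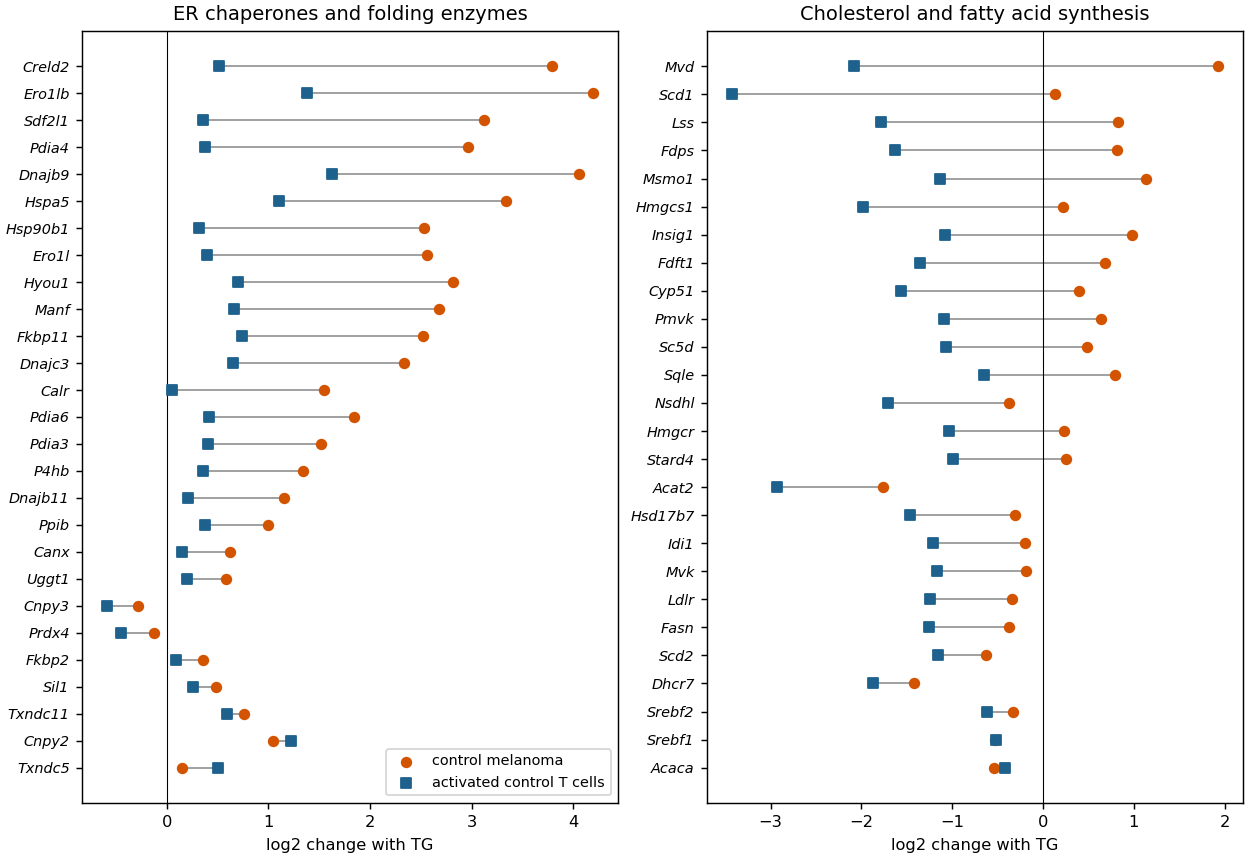
Log2 change with TG in control melanoma (orange circles) and activated control T cells (blue squares) for the 27 ER chaperone genes and 26 of the sterol and fatty acid genes, ordered by the size of the difference. Most chaperones lie right of 0 in both cell types with melanoma further right, while every sterol gene shown lies left of 0 in T cells.

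Outside sterol synthesis, Mxd1, Tgfbr3 and Slc39a14 were named among the 25 genes at least 2-fold higher in melanoma and at least 2-fold lower in T cells. Mxd1, a MYC antagonist, had 36.3 and 37.7 CPM in melanoma with TG, against 11.8 and 14.2 CPM with vehicle, and 19 and 19.2 CPM in T cells with TG, against 76.7 and 77.2 CPM with vehicle. The groups did not overlap in either cell type, and the log2 changes were 1.52 and -2.01. Tgfbr3, a co-receptor for TGF-beta, had 19.4 and 17.4 CPM in melanoma with TG, against 7.58 and 7.33 CPM with vehicle, and 8.43 and 8.85 CPM in T cells with TG, against 62.6 and 64.4 CPM with vehicle. TG was higher than vehicle in melanoma and lower in T cells, with a difference of 4.17 ± 0.15. Slc39a14, a zinc and iron importer, changed by 1.35 in melanoma and -1.16 in T cells. Ddit4, an mTORC1 inhibitor and ATF4 target, had 135 and 141 CPM in melanoma with TG, against 13.4 and 13.5 CPM with vehicle, and 179 and 156 CPM in T cells with TG, against 298 and 278 CPM with vehicle. With TG the cell types came close to each other, from a vehicle level in melanoma that was 0.0467 of that in T cells. Hk2, the inducible hexokinase, changed by 0.81 in melanoma and -0.82 in T cells.

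In the other direction, Synpo, an actin-binding protein, had 28.8 and 30.5 CPM in melanoma with TG, against 89.3 and 96.7 CPM with vehicle, and 28.9 and 28.1 CPM in T cells with TG, against 3 and 2.56 CPM with vehicle. The TG libraries of both cell types met between 28.1 and 30.5 CPM, from a vehicle level 33.5 times as high in melanoma. The log2 changes were -1.64 and 3.34, and the difference was -4.98 ± 0.14 (adjusted p = 2.2e-44). Tbc1d4, a regulator of glucose transporter traffic, had 14.3 and 12.4 CPM in melanoma with TG, against 49 and 46.2 CPM with vehicle, and 13.5 and 14.1 CPM in T cells with TG, against 2.46 and 2.40 CPM with vehicle. It too ended at like levels, with log2 changes of -1.83 and 2.50. Stard9, a mitotic kinesin, changed by -1.67 and 2.85, and Hsd17b11, a lipid droplet dehydrogenase, by -1.75 and 1.93.

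Cell death genes moved in both directions in each cell type. Bcl2l11 (BIM), a BH3-only killer, had 3.74 and 4.09 CPM in melanoma with TG, against 5.97 and 6.13 CPM with vehicle, and 60.2 and 59.9 CPM in T cells with TG, against 24 and 24.5 CPM with vehicle. It was lower with TG in melanoma (-0.62 ± 0.18) and higher in T cells (1.31 ± 0.072), and the difference of -1.93 was called. Bbc3 (PUMA) rose in both, by 0.93 in melanoma and 1.29 in T cells, and its difference of -0.36 ± 0.26 was not called (adjusted p = 0.31). Mcl1, a survival gene, changed by -0.10 in melanoma and -0.04 in T cells, the last not called. Of 14 death receptor and caspase genes 9 fell and 3 rose in melanoma, while 4 fell and 6 rose in T cells, and 8 differences were negative and 1 positive. Casp6, an effector caspase, changed by -1.92 in melanoma and 0.67 in T cells. Casp4, the inflammatory caspase, rose in both, by 4.71 and 2.07. Of 9 survival genes 4 rose and 4 fell in each cell type, and 6 differences were positive and 1 negative. Over all 10377 genes 28.5% of differences were positive and 29.1% negative. Birc2, an inhibitor of apoptosis protein, changed by 1.21 in melanoma and -0.53 in T cells, and Xiap by -0.40 and 0.36. Of 19 p53 targets 12 rose and 3 fell in melanoma, against a background of 36.4% raised and 37% lowered, and 11 rose and 3 fell in T cells, against 37% raised and 33% lowered. Gadd45a, a stress and DNA damage gene, rose by 4.14 in melanoma and 1.53 in T cells, and Cdkn1a (p21) was 0.61 higher in melanoma and 0.27 lower in T cells on the log2 scale.

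MYC network genes also differed. Of 22 genes 10 rose and 10 fell in melanoma, 3 rose and 16 fell in T cells, and 16 differences were positive and 2 negative. Over all genes expressed in both cell types 36.4% rose and 37% fell in melanoma, and 37% rose and 33% fell in T cells. Of all differences 28.5% were positive and 29.1% negative. Myc itself had 102 and 98.7 CPM in melanoma with TG, against 175 and 176 CPM with vehicle, and 360 and 337 CPM in T cells with TG, against 585 and 570 CPM with vehicle. The fall was close in size, -0.80 and -0.73, with a difference of -0.08 ± 0.059 that was not called. Among 21 immediate early genes 11 rose and 6 fell in melanoma, and 9 rose and 10 fell in T cells, against the same shares over all genes. Fos had 3.37 and 4.44 CPM in melanoma with TG, against 11 and 14.1 CPM with vehicle, and 20 and 21 CPM in T cells with TG, against 9.53 and 9.39 CPM with vehicle. It went opposite ways, by -1.66 in melanoma and 1.12 in T cells. Nr4a1, an orphan receptor induced by the T cell receptor, did the same at -1.21 and 0.24. Nr4a2 rose by 2.53 in melanoma and 0.32 in T cells. Txnip, a brake on glucose uptake, rose by 1.76 in melanoma, and its T cell change of -0.17 was not called.

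The counts that follow stand against a background of 36.4% raised and 37% lowered in melanoma, and 37% raised and 33% lowered in T cells. Of all differences 28.5% were positive and 29.1% negative. Of 38 ribosomal protein genes 16 rose and 8 fell in melanoma, with a median log2 change of 0.0676, while 31 rose in T cells, with a median of 0.233, and 23 differences were negative and 1 positive. Of 28 proteasome genes 20 fell and 3 rose in melanoma, and 13 fell and 8 rose in T cells. Of 32 autophagy and lysosome genes 20 rose and 2 fell in melanoma, and 24 rose and 5 fell in T cells. Ctsl, the protease cathepsin L, rose more in T cells: it had 286 and 273 CPM in melanoma with TG, against 127 and 123 CPM with vehicle, and 21.7 and 21.8 CPM in T cells with TG, against 2.64 and 4.42 CPM with vehicle. The log2 changes were 1.16 in melanoma and 2.67 in T cells (difference -1.51 ± 0.15). Of 12 NF-kB genes 6 rose and 1 fell in melanoma, while 3 rose and 5 fell in T cells, and Relb, the subunit of the alternative pathway, rose by 2.81 in melanoma and 0.52 in T cells. Of 17 interferon-stimulated genes 7 rose and 5 fell in melanoma, near the background there, and 3 rose and 11 fell in T cells. Isg20, an exonuclease, had 9.94 and 10.8 CPM in melanoma with TG, against 0.172 and 0.211 CPM with vehicle, and 4.97 and 5.42 CPM in T cells with TG, against 7.19 and 6.83 CPM with vehicle. In melanoma it reached 1 CPM with TG only, so it counts as expressed there through the TG libraries alone. Its difference was 6.14 ± 0.35, while its fall in T cells (-0.43) was not called without the first TG library there (-0.38, adjusted p = 0.099). Of 8 genes of MHC class I presentation 7 differences were positive and none negative, and 2 of the 8, Calr and Pdia3, are also ER chaperones. H2-K1, a class I heavy chain with close copies in the genome, was at 6.29 and 6.58 CPM in melanoma with TG, against 1.84 and 2.04 CPM with vehicle, and at 1830 and 1690 CPM in T cells with TG, against 1290 and 1300 CPM with vehicle.

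**Figure D4:**
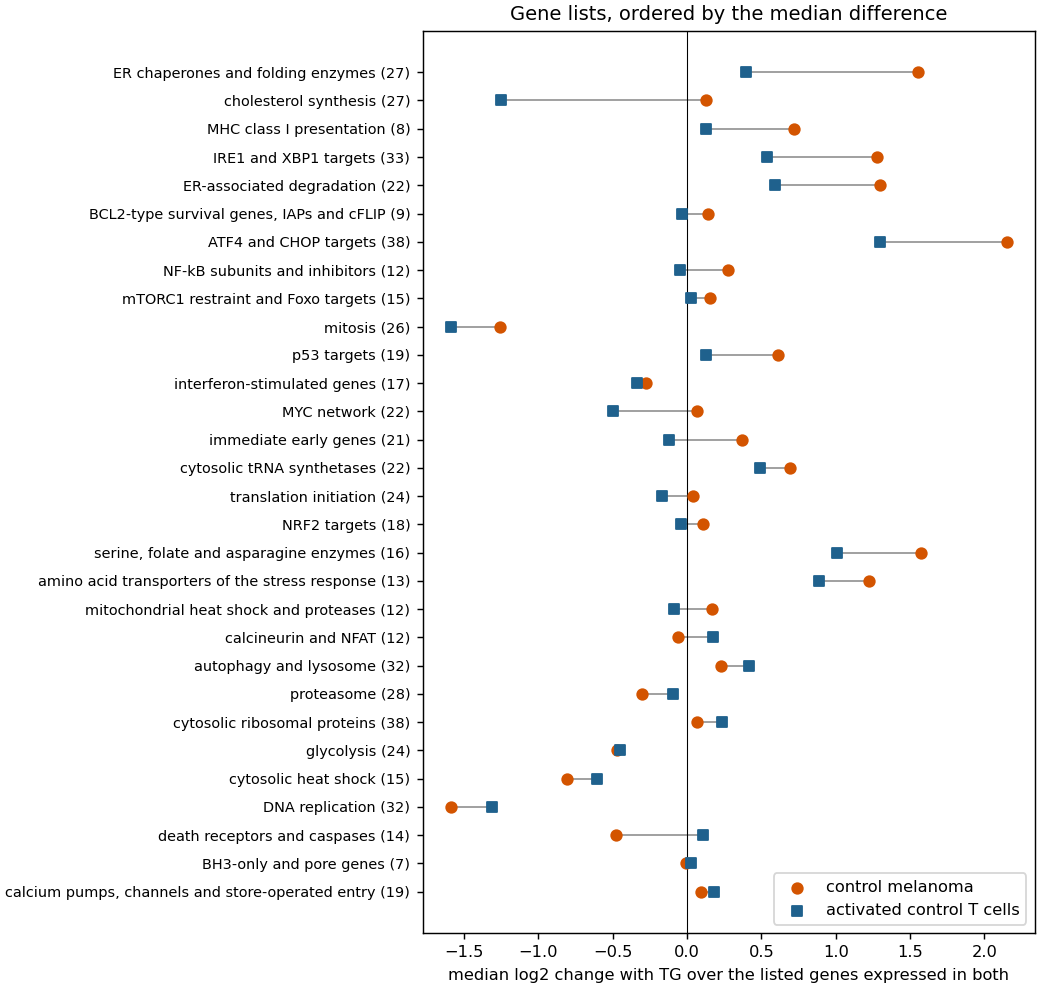
Median log2 change with TG over the genes of each of 30 lists, in control melanoma (orange circles) and activated control T cells (blue squares), with the number of genes in brackets and the lists ordered by their median difference. ER chaperones and sterol synthesis have the widest gaps with melanoma to the right, and replication and mitosis lie left of 0 in both cell types.

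The classes were then read in libraries outside the contrasts that defined them. All 20 libraries shared the filter, the scaling and the estimate of spread behind the calls. In Ccdc101 KO melanoma TG raised 36.4% and lowered 35.5% of the 10377 genes, and in resting T cells it raised 37% and lowered 34%. Of the 2313 genes raised in both cell types at any size, 2085 rose in Ccdc101 KO melanoma (90.1%), and in resting T cells 1655 rose (71.6%) and 202 fell (8.73%). Of the 2239 lowered in both at any size, 1969 fell in Ccdc101 KO melanoma (87.9%), and in resting T cells 1590 fell (71%) and 211 rose (9.42%). Of the 281 genes raised at least 2-fold in both cell types, 274 rose in Ccdc101 KO melanoma (97.5%) and 242 rose in resting T cells (86.1%). Of the 292 lowered at least 2-fold in both, 290 fell in Ccdc101 KO melanoma (99.3%) and 275 fell in resting T cells (94.2%). Slc6a9 had 167 and 160 CPM in Ccdc101 KO melanoma with TG, against 12.2 and 12.9 CPM with vehicle, and 141 and 140 CPM in resting T cells with TG, against 4.45 and 4.24 CPM with vehicle.

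Opposite and cell-specific genes were read in the same way. Of the 504 genes higher in melanoma and lower in T cells at any size, 414 rose in Ccdc101 KO melanoma (82.1%), and in resting T cells 240 fell (47.6%) and 131 rose (26%). Of the 694 lower in melanoma and higher in T cells, 551 fell in Ccdc101 KO melanoma (79.4%), and in resting T cells 362 rose (52.2%) and 166 fell (23.9%). Of the 25 genes at least 2-fold higher in melanoma and lower in T cells, 20 rose in Ccdc101 KO melanoma (80%) and 21 fell in resting T cells (84%). Of the 28 in the other direction, 27 fell in Ccdc101 KO melanoma (96.4%), and in resting T cells 19 rose (67.9%) and 5 fell (17.9%). Genes raised in melanoma alone rose in 271 of 279 in Ccdc101 KO melanoma, and in resting T cells 139 rose and 68 fell. Genes lowered in melanoma alone fell in 266 of 272 in Ccdc101 KO melanoma, and in resting T cells 50 rose and 151 fell. Genes raised in T cells alone were mixed in Ccdc101 KO melanoma, where 58 rose and 49 fell, and rose in 160 of 196 in resting T cells (81.6%). Of those lowered in T cells alone, 22 rose and 77 fell in Ccdc101 KO melanoma, and 129 of 164 fell in resting T cells (78.7%). The difference of effects between Ccdc101 KO melanoma and resting T cells was positive in 30.6% and negative in 28.3% of all genes. It was positive in 220 of the 279 genes raised in melanoma alone (78.9%) and negative in 144 of the 196 raised in T cells alone (73.5%).

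**Figure D5:**
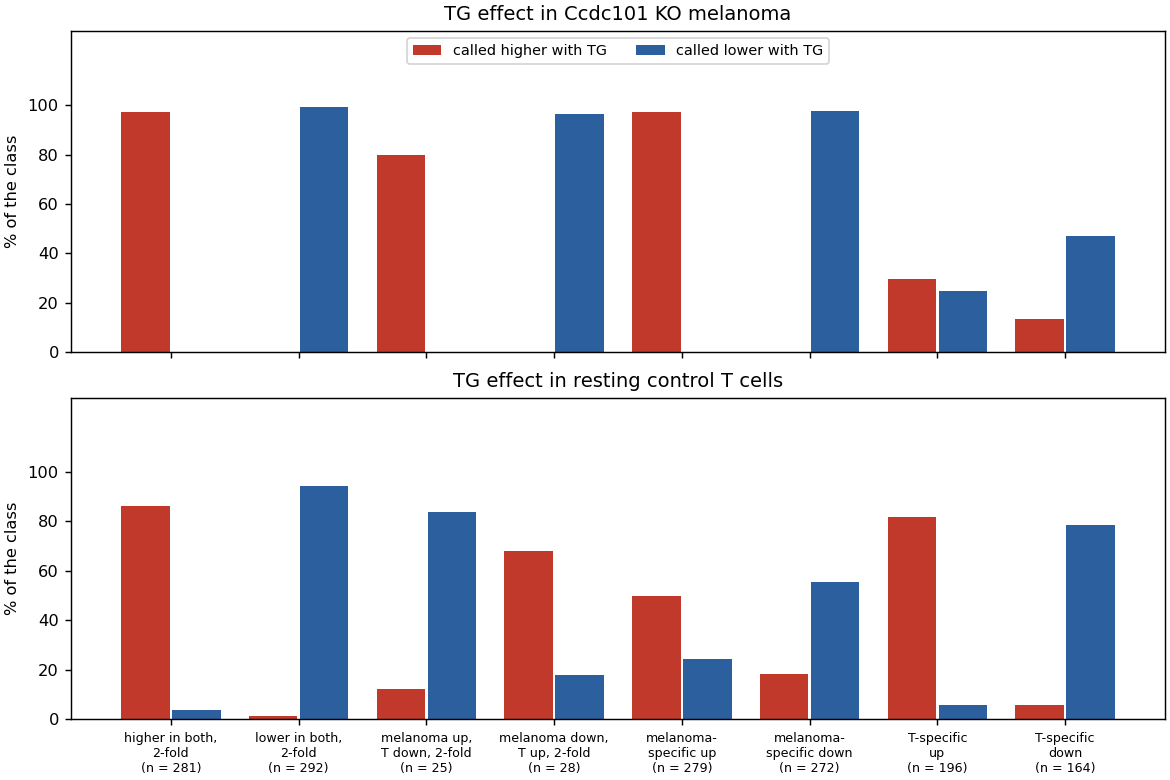
Percent of the genes of each class called higher (red) or lower (blue) with TG. The upper panel shows Ccdc101 KO melanoma and the lower panel resting control T cells. These libraries lie outside the contrasts that defined the classes but entered the same fit, and n is the number of genes. The classes raised in both or lowered in both at least 2-fold are nearly filled by 1 colour in both panels. Genes raised or lowered in melanoma alone leaned the same way in resting T cells. Genes lowered in T cells alone leaned the same way in Ccdc101 KO melanoma, where those raised in T cells alone were mixed.

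Of the 27 sterol and fatty acid genes 15 rose and 8 fell in Ccdc101 KO melanoma, while all 27 fell in resting T cells. ER chaperones rose in 25 of 27 in Ccdc101 KO melanoma, with a median of 1.82, and in 20 of 27 in resting T cells, with a median of 0.518. Atf3 did not keep its pattern: in resting T cells it had 52.3 and 55.5 CPM with TG, against 5.39 and 6.9 CPM with vehicle, a log2 change of 3.14, where activated T cells gave -0.48. Of the 38 ribosomal protein genes 31 rose in activated T cells, with a median of 0.233. In resting T cells 3 of the 38 rose and 15 fell, with a median of -0.0608. Over all genes expressed in both cell types 37% rose and 34% fell in resting T cells. The rise of the ribosomal protein genes was thus absent there, while the share lowered lay near the background.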

How the data were processed

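RNA-seq read counts per gene were deposited by the authors for each library, unnormalised, with STAR 2.6.0c as aligner, HTSeq as counter and GRCm38 (mm10) as genome build, per the submitters' processing notes. The annotation, the strand setting and the HTSeq version are not given in the sources used here. Counts on genes that overlap on opposite strands may therefore be mixed, and by its usual settings HTSeq leaves out multi-mapping reads. The table holds 46603 gene IDs, 46005 of them named through GENCODE M21, and the unnamed ones took 0.0759% of counts.

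All 20 libraries of 10 groups entered edgeR 4.0.16 (R 4.3.3), with TMM scaling, the default filterByExpr filter, a robust quasi-likelihood fit without intercept and 10 residual degrees of freedom. Adjusted p-values are Benjamini-Hochberg over all 14824 genes, called below 0.05, and the script was tested on simulated data. An SE was computed as |log2 change| / sqrt(F). TMM-scaled CPM are printed. Fold changes at low counts are imprecise, and intervals cover counting error only. Named genes were, per class, the 4 with at least 10 CPM and the largest change or difference, up to 4 per list by difference, and a fixed panel; exceptions in a list were named after their values were seen. Some list genes count in their lists but are not reported here singly. The members and the lists were chosen with earlier results of these data known. Replicate numbers were not taken as pairs. Alternatives were other scalings (upper quartile, RLE), DESeq2 1.42.0, other filters, the 8 libraries alone, a replicate block, and leaving out each library. Motifs were searched in RefSeq promoters of GRCm38.p6. Plots used matplotlib 3.10.9.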

Additional observations from a re-analysis of the deposited data

Results flagged for a closer look

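The effects of TG in melanoma and in activated T cells differed, by a test of the difference itself, in 2955 genes with a positive and 3018 genes with a negative difference. Among the genes named by class, the log2 differences on the positive side were 9.56 for Atp2a3, 5.22 for Atf3, 5.11 for Apobr and 3.74 for Lgals3, raised in melanoma alone. The value of Atp2a3 rests on 1 count over the vehicle libraries of melanoma and is no bound: the ratio of levels was 925, with a 95% interval from 165 to 36600 that covers counting error only. Atp2a3 and Apobr reached 1 CPM in melanoma with TG only. For the genes lowered in T cells alone they were 3.56 for Scd1, 3.55 for Me1, 2.8 for Lmna and 2.78 for C1qtnf6. For those higher in melanoma and lower in T cells they were 4.17 for Tgfbr3, 4.01 for Mvd, 3.53 for Mxd1 and 2.51 for Slc39a14. On the negative side they were -3.98 for Paqr7, -3.17 for Egr1, -2.75 for Cemip2 and -2.7 for Slc29a1, lowered in melanoma alone. The genes raised in T cells alone had differences of -4.19 for Vwa5a, -3.95 for Ccn1, -3.23 for Spry1 and -2.77 for Samd4. Those lower in melanoma and higher in T cells had differences of -4.98 for Synpo, -4.52 for Stard9, -4.33 for Tbc1d4 and -3.68 for Hsd17b11. These genes were selected for large differences, so the values are descriptions.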

How the results depend on the processing

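With a mean of at least 5 CPM asked in both cell types, the genes changed at least 2-fold in opposite directions numbered 7 (higher in melanoma) and 13 (lower in melanoma), and 105 fell in T cells alone. With a fold of 1.5 in place of 2, 804 rose and 780 fell in both, 82 were higher and 130 lower in melanoma with the opposite change in T cells, 713 rose and 734 fell in melanoma alone, and 495 rose and 417 fell in T cells alone. With a bound of 0.25 in place of 0.5, 129 rose and 143 fell in melanoma alone, and 101 rose and 86 fell in T cells alone. The other 303 recomputed counts stayed within 1.5 times the reported ones. The mean of 5 CPM, the fold of 1.5 and the bound of 0.25 change the rule itself, by construction.

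With the replicate number as a block, 2916 differences were positive and 2984 negative. Same-numbered libraries deviated together by a correlation of 0.063 in melanoma and 0.0498 in T cells, so the numbers were not taken as pairs.

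Among single genes 29 recomputed values changed sign, all of changes that were not called, and the cause was not tested. Over the fits leaving out 1 library, the difference lay between -0.05 and 0.05 for Aurkb, between -0.21 and 0.21 for Fbxo5, between -0.11 and 0.09 for Phf19 and between -0.43 and 0.08 for Prkar2b. The melanoma change lay between -0.27 and 0.01 for Bid and between -0.12 and 0.08 for Tnip1. The T cell change lay between -0.07 and 0.32 for Cemip2, between -0.41 and 0.02 for Ifit1 and between -0.0 and 0.05 for Rpl11. With no filter the difference was -0.02 for Aurkb and -0.01 for Phf19. That of Fbxo5 was 0.02 with upper quartile scaling and 0.0 with a 5 CPM filter and with 8 libraries. With RLE scaling and DESeq2 the T cell change of Rpl11 was -0.0 and the melanoma change of Tnip1 -0.01, as it was with no filter. A call was lost in 69 and gained in 30 gene values, mostly small changes in the cell type that moved little, such as Egr1, Itpr1 and Slc29a1 in T cells and Scd1, Lmna, Spry1 and Ccn1 in melanoma. With 2 libraries a group, depth limits what can be said of genes at a few counts.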

Other observations

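Resting T cells, which share the cell type of the activated ones but not the antibody to CD3, gave other values for several genes named above. Nr4a1 had 101 and 106 CPM in resting T cells with TG, against 2.91 and 4.04 CPM with vehicle, a log2 change of 4.91, where activated T cells gave 0.24. Nr4a2 had 289 and 276 CPM in resting T cells with TG, against 5.91 and 7 CPM with vehicle, a change of 5.46, where activated T cells gave 0.32.

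Atp2a3 had 143 and 131 CPM in resting T cells with TG, against 502 and 498 CPM with vehicle, so TG lowered it there (-1.87). Atp2a2 had 389 and 396 CPM in resting T cells with TG, against 240 and 241 CPM with vehicle, and rose by 0.71, as it did in melanoma. Myc rose by 0.23 in resting T cells, where it fell in both groups compared above. Slc1a4 rose by 4.57 and Ctsl by 4.63 in resting T cells. The difference between resting and activated T cells was not tested.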
